A study of Caenorhabditis elegans with 2 samples.

Results

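The genes described here are the 346 small nucleolar RNA (snoRNA) genes of the Caenorhabditis elegans nuclear genome, out of 46890 annotated nuclear genes. They were taken as every nuclear gene that Ensembl release 115 classes as snoRNA on assembly WBcel235, the same assembly as ce11. Each gene was given the highest signal of any peak summit within 250 bp of its midpoint. A total of 183 members lay wholly inside a protein-coding gene and on its strand. Another 33 lay inside a coding gene on the opposite strand, 124 were intergenic, and 6 that overlapped a coding gene in part were kept apart.

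The peaks come from ChIP-seq of AMA-1, the largest subunit of RNA polymerase II, in whole young adult worms of pooled sexes. Per the labels, both samples are strain YL503, with unc-119(ed3) III and the insertion vrIs110. This insertion carries the pie-1 promoter, which is known to be active in the germline, in front of AMA-1 joined to GFP and FLAG, then the AMA-1 3′ UTR, and unc-119(+) as well. The worms' age in days is unlabelled, chromatin was sheared by sonication, and the antibody is labelled ama-1 without a word on whether it bound the tag or the protein. Both samples, 2 biological replicates, belong to 1 group, so no condition was compared and no test was made. In whole animals, a strong signal in few cells and a weak one in many cannot be told apart. A control library is listed in the labels and was not analysed here.

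snoRNAs are short nuclear RNAs that pair with ribosomal and spliceosomal RNA and guide its chemical modification. C/D box snoRNAs guide ribose methylation with the proteins fibrillarin, NOP56, NOP58 and SNU13, and H/ACA box snoRNAs guide pseudouridylation with dyskerin and its partners. Many animal snoRNAs lie in introns and are cut from the spliced host transcript, while others have promoters of their own. Some nematode snoRNA genes are known to be transcribed by RNA polymerase III, whose tRNA genes carry an internal promoter of an A box and a B box and end in a run of T.

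Many of the members with high AMA-1 signal share letters before their 5′ end, so these are shown before the values. The capitals mark 2 patterns. The A letters are TGG, 3 bases of any kind, A, 1 base of any kind and TGG. The B letters are GTTCNANNC, where N is any base. Both were searched on the member's own strand in the 100 bases before its 5′ end. The A letters and this stretch were chosen by comparing members with and without a thresholded summit. Of the 58 members with such a summit, 28 had neither pattern. The 5 members shown are among the 7 with the highest pooled signals that hold both patterns and have a thresholded summit. All sequences are from the RefSeq genome on WBcel235, read 5′ to 3′ on the strand of the gene. The stretches with the A letters were these.
Y75B12B.12: gcgaccgagTGGTTCAGTGGtaaagcgcgc
C04G6.12: tgacatgtgTGGCCGAGTGGttagcgtgcg
Y43F8C.22: tgctacccgTGGCTTAGTGGctaacgcgct
F12F6.11: ttgattgcaTGGCCGACTGGttaacgcagt
T10B9.11: cgacctcggTGGCGCAGTGGgtaacgctgt
They lie at chrV:15191130-15191159, chrII:5105269-5105298, chrV:19643220-19643249, chrIV:11549904-11549933 and chrII:9774874-9774903, in the order given and all on the minus strand.

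The B letters of the same 5 members stood just before the annotated gene.
Y75B12B.12: caaacaacagacgcggGTTCAACTCctcag
C04G6.12: cgaattgagtgcgttaGTTCAACCCgctcg
Y43F8C.22: cctgccgcccacagcttccggGTTCGATTC
F12F6.11: tttatgcatcacggGTTCGATTCtcgtggc
T10B9.11: gtttgcgctggtcgtGTTCGACGCctggac
These stretches lie at chrV:15191094-15191123, chrII:5105232-5105261, chrV:19643188-19643217, chrIV:11549865-11549894 and chrII:9774835-9774864. The last base before the gene is the last base shown for all 5. The pooled signal was 59.0 at F12F6.11 (37.9 and 23.4 in replicates 1 and 2) and 57.4 at T10B9.11 (40.2 and 18.1).

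The 3′ ends of these members are followed by T. The next lines show the last 15 bases of each gene and the 15 bases after it, with the first run of at least 4 T that starts past the end in capitals.
Y75B12B.12: gcaacgtctgagctgatttcTTTTTTTTTT
C04G6.12: atttactgaggctgttttgcTTTTTTTTct
Y43F8C.22: acgtggtttacaatttttcgcacTTTTTTT
F12F6.11: agaagtactgaccgcTTTTTTgaaatttga
T10B9.11: ctccttgtctgagtcagtcctaTTTTgtaa
These stretches lie at chrV:15190961-15190990, chrII:5105142-5105171, chrV:19643035-19643064, chrIV:11549778-11549807 and chrII:9774749-9774778.

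AMA-1 summits of high signal lay at 58 of the 346 snoRNA genes (16.8%, exact 95% binomial interval 13 to 21.1), against 0.987% of all nuclear genes by the same window. A member was counted as called where a summit of the authors' thresholded list lay within 250 bp of its midpoint. The share over all nuclear genes includes 15363 piRNA genes, of which 0.0846% were called. Among protein-coding genes 0.165% were called by this midpoint window, while 4.0% had a thresholded summit within 500 bp of the start or end. This list is the top of the pooled list, with 706 nuclear peaks and signals from 27.5 upward. For each replicate alone, the same number of its highest peaks was taken as its top list. The intervals of the position groups overlapped. On the same strand 28 of 183 were called (15.3%, 10.4 to 21.3), on the opposite strand 7 of 33 (21.2%, 8.98 to 38.9), and among intergenic members 20 of 124 (16.1%, 10.1 to 23.8). Among members more than 500 bp from any coding start or end, the intergenic count was 7 of 78 (8.97%, 3.68 to 17.6), the same-strand count 22 of 129 (17.1%, 11 to 24.7) and the opposite-strand count 5 of 27 (18.5%, 6.3 to 38.1). Of the 6 that overlap a coding gene in part, 3 were called (50%, 11.8 to 88.2). Intervals cover the counting of genes alone, neighbours are not independent, and the depth of the libraries is unknown.

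The wider list of pooled peaks, which also holds background, had a summit at 177 members (51.2%) against 14.9% of all nuclear genes, and 169 members had none. The members with one had a median pooled signal of 16.9, in a range of 3.7 to 107.6, and all nuclear genes with one had a median of 7.1. By group the median was 15.4 over 99 same-strand members, 21.5 over 18 opposite-strand members and 18 over 57 intergenic ones. Replicate 1 gave medians of 10.7, 12.8 and 12.6 for these 3 groups, and replicate 2 gave 7.96, 6.48 and 7.53. The groups overlapped over most of their range in every list, and their order differed between the replicates. Signals are the authors' own values for each peak, and lists are set side by side without a comparison of level, since their scaling is not stated.

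**Figure D1:**
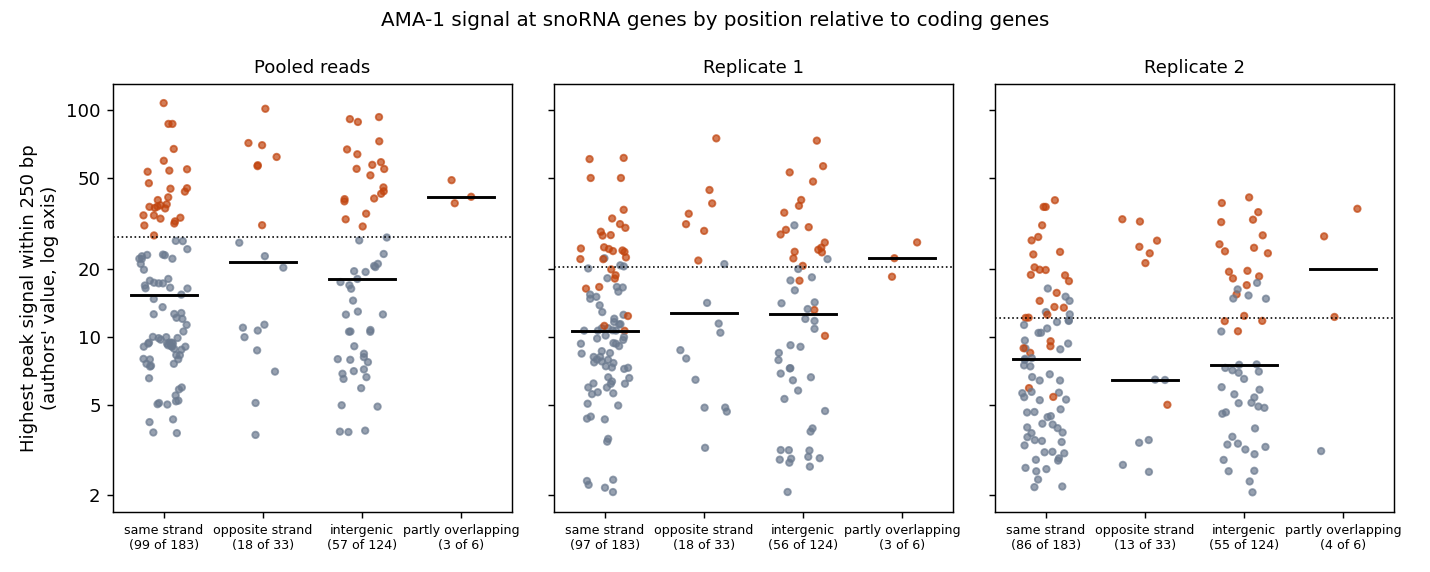
Highest peak signal within 250 bp of each snoRNA gene's midpoint (log axis, the authors' value), by position relative to coding genes, in the pooled list and in each replicate. Points are genes with a summit (number of all members in brackets), orange where a thresholded summit lies in the window, black lines are medians, and dotted lines mark the lowest signal in the thresholded list and in the top list of each replicate (27.5, 20.3 and 12.1); high and low genes occur in the same-strand, opposite-strand and intergenic groups.

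Among the same-strand members, the highest signal lay at ZK994.7 (chrV:8500579-8500645, plus strand), in an intron of pxn-1, which encodes a peroxidasin of the extracellular matrix. Its pooled signal was 107.6, with 60.9 in replicate 1 and 40.1 in replicate 2, which placed it at rank 25, 39 and 30 in these lists. The summit stood 12 bp before its 5′ end, and no pooled summit lay within 250 bp of the start or end of pxn-1, which are 5723 and 1830 bp away. Next came C51F7.3 and C51F7.4 in frm-7, a FERM domain gene, which share 1 summit of 87.1 (50.3 and 37.5 in replicates 1 and 2). The other 3 of the 6 highest in this group were F25H2.14 in tct-1, Y43F8C.22 in Y43F8C.7 and C27H6.5 in unc-41, a synaptic vesicle recycling gene. F25H2.14 had 67.5, with 61.6 in replicate 1 and 9.10 in replicate 2, and its summit is also within 250 bp of the start of tct-1. The replicates ranked F25H2.14 at 36 and at 1628, so it is in the top list of replicate 1 and not in that of replicate 2. Y43F8C.22 had 59.9, with 30.3 and 31.1, and C27H6.5 had 54.9, with 24.6 and 23.1.

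Members opposite to their host gene reached like signals, led by T03F7.8 (chrV:11314258-11314332) in an intron of cutl-18, a gene of the cuticlin-like family. Its pooled signal was 101.5, with 75.2 in replicate 1 and 33 in replicate 2. B0334.12 in twk-5, a potassium channel gene, had 71.7, with 38.8 and 32.3. ZK484.9 in haf-9, an ABC transporter gene, had 70.1, with 44.5 and 26.6. All of these stood among the 100 highest peaks of each replicate. C04G6.12 in mpk-2, a MAP kinase gene, had 62.2 (34.9 and 25), C27H5.9 in pdl-1 had 57.2 (29.4 and 21.2), and T04A8.17 in ppat-1 had 56.7 (31.4 and 23.4).

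The intergenic members with the highest signals were T19B4.8, ZK265.10 and Y75B12B.12. T19B4.8 (chrI:5707046-5707119, plus strand) had 93.3, with 73.4 in replicate 1 and 19.6 in replicate 2. ZK265.10 had 91.4, with 53.2 and 35.5. Y75B12B.12 had 88.8, with 56.7 and 41.3, and lies 108 bp from the end of cyn-3, a cyclophilin gene, so that end is in the same window. T06C12.16 followed with 73.0 (48.5 and 23.9), Y53F4B.48 with 67.2 (28.3 and 39.0) and W03C9.9 with 63.9 (35.3 and 25.6). Y23H5B.10 had 55.1, with 20.6 in replicate 1 and 32.9 in replicate 2. C41C4.11 had 55.2 (23.8 and 32.1) and F32E10.10 had 51.6 (24.2 and 28.1). A coding gene end is also in the window of T06C12.16 (120 bp away), Y53F4B.48 (233), W03C9.9 (62) and F32E10.10 (199). Y53F4B.48 has a coding gene start at 230 bp as well. T19B4.8, ZK265.10, Y23H5B.10 and C41C4.11 have no coding start or end within 250 bp. Over all groups, 19 called members have their summit among the 100 thresholded peaks of highest signal, where C51F7.3 and C51F7.4 share 1.

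The partly overlapping members cannot be told apart from coding gene ends, since the 3 called ones lie at such ends. T02E1.9 had 49.2 (22.2 and 27.8) at 30 bp from a coding gene end. T27A3.9 had 41.5 (18.4 and 36.8) at 35 bp from the end of T27A3.8, and W01C9.6 had 38.9 (26.1 and 12.2) at 64 bp from the end of glb-27, a globin gene. Over all members, 112 lie within 500 bp of a coding start or end, and 24 of these were called (21.4%). Of the 234 that lie farther away, 34 were called (14.5%). A summit at a snoRNA gene near a coding end cannot be assigned to 1 of the genes.

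The summits stood at the 5′ end of the snoRNA gene and mostly just before it. Measured in the direction of transcription, the median position over the 58 called members was −19 bp from the 5′ end, with quartiles at −48 and 20 and a range of −98 to 296. The top list of either replicate alone gave a median of −30 bp, and windows of 100 and 500 bp gave −6.5 and −4. A total of 38 summits were upstream, all within 100 bp, 15 were inside the gene and 5 lay past it. The medians were −28.5 bp for intergenic members, −6.5 for same-strand members and −3 for opposite-strand members, which differ by less than the quartiles of each group span. The top lists placed 33 (replicate 1) and 36 (replicate 2) summits in the 100 bp before the 5′ ends of all members, against 38 in the thresholded list. In the 20 bins of 50 bp between 500 and 1000 bp on either side, the median was 1 summit per bin in all 3 lists.

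**Figure D2:**
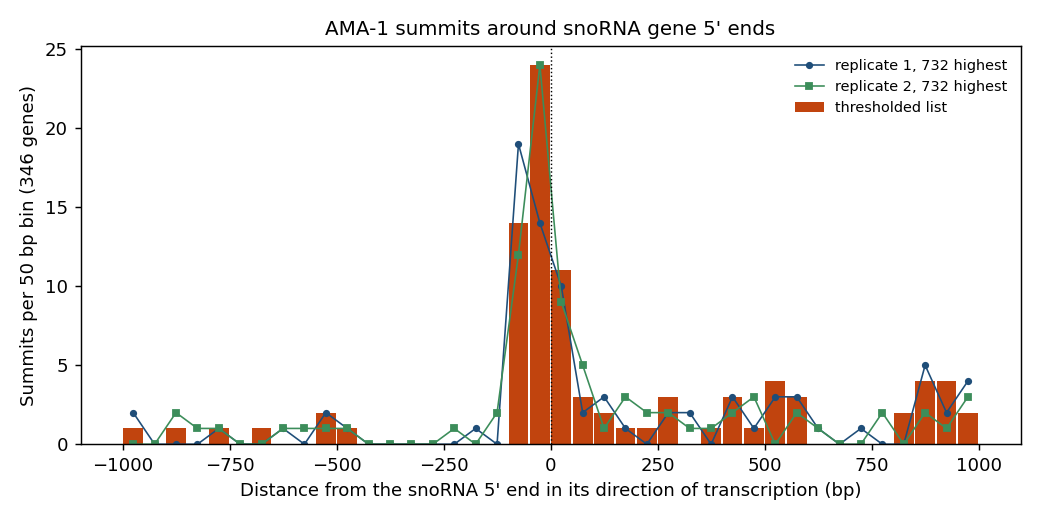
Number of summits per 50 bp bin (vertical axis) by distance from the 5′ end of the 346 snoRNA genes (horizontal axis, bp, in the direction of transcription). Bars are the thresholded list and lines the top list of each replicate; all 3 rise in the 100 bp before the 5′ end, where the thresholded list has 38 summits, and beyond 500 bp no bin holds more than 5.

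Within host genes, the introns that hold a snoRNA gene carried summits more often than the other introns of the same genes, though most had none. Of 153 introns with a same-strand member, 21 had a thresholded summit within 250 bp of the intron's midpoint (13.7%, exact interval 8.7 to 20.2). Of the 1294 other introns of these hosts, 8 did (0.618%, 0.267 to 1.21). Counting summits inside the intron gave 26 of 153 (17%) and 1 of 1294 (0.0773%). The introns differ in length, with medians of 390 and 135 bp. Among introns of at least 200 bp, where the medians were 577.5 and 748.5 bp, the counts were 20 of 132 (15.2%) and 0 of 580, for which the exact interval reaches 0.634%. The counts with replicate 1 alone were 16 of 153 and 10 of 1294, and with replicate 2 alone 18 of 153 and 9 of 1294.

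Summits at the starts and ends of the host genes were counted as well. A summit called at a member can be the same as one counted at its host, as for F25H2.14 and the start of tct-1. The 28 called same-strand members have 27 hosts, of which 2 had a thresholded summit within 250 bp of the annotated start and 3 of the end. Among the 19973 nuclear protein-coding genes, 164 had one at the start (0.821%) and 500 at the end (2.5%). Where the member lies more than 500 bp from both ends of the host, which holds for 21 hosts, this was 1 at the start and 1 at the end. Hosts of the 7 called opposite-strand members had 0 at either end. Of the same-strand members, 25 of the 145 that lie wholly in an intron were called (17.2%), and 3 of the 38 that overlap an exon (7.89%, 1.66 to 21.4). On the opposite strand these were 7 of 27 and 0 of 6.

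Most hosts hold a single member. The 183 same-strand members lie in 156 hosts, 133 of which have 1. The gene nol-56, itself the C/D box core protein NOP56, has the most with 4. Of these K07C5.18 was called, with a pooled signal of 31.6, then 24.1 in replicate 1 and 5.44 in replicate 2. The other 3 in nol-56 had pooled signals of 7.95 for K07C5.10, 9.97 for K07C5.12 and 8.86 for K07C5.11, so 1 of the 4 stood above the threshold of 27.5. The ribosomal protein gene rpl-6 and the topoisomerase gene top-2 have 3 members each and 0 called.

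Called members were shorter than the others, with a median length of 79 bp against 133 bp for the rest. By group the medians were 73.5 against 156 bp for intergenic members and 75 against 129 bp on the opposite strand. On the same strand they were close, at 125.5 against 128 bp. Of the 56 members of 80 bp or less, 30 were called (53.6%, 39.7 to 67), and their median pooled signal was 42.2 over the 42 with a summit. Over 80 and up to 110 bp 6 of 56 were called (10.7%, 4.03 to 21.9), up to 150 bp 18 of 124 (14.5%, 8.84 to 22), and above that 4 of 110 (3.64%, 1 to 9.05). In replicate 1 the shortest class had 28 of 56 in the top list, and in replicate 2 it had 26 of 56. The length classes were set after values had been seen, and those above 80 bp replaced an earlier division at nearby lengths. Members of 80 bp or less were called in every group, with the lowest share on the same strand, at 9 of 25. On the opposite strand 6 of 9 were called, among intergenic members 13 of 20, and among partly overlapping ones 2 of 2.

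**Figure D3:**
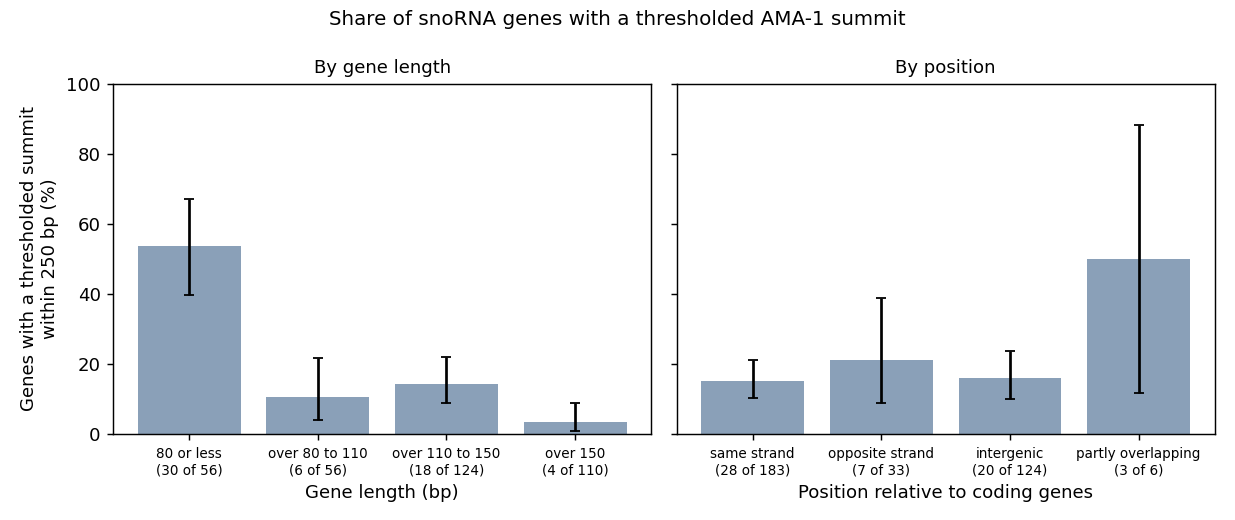
Share of snoRNA genes with a thresholded summit within 250 bp (percent), by gene length on the left and by position relative to coding genes on the right, with exact 95% binomial intervals as error bars and the called members of all members under each bar. The shortest genes stand highest, at 53.6%, and same-strand and intergenic genes, at 15.3% and 16.1%, have overlapping intervals.

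C/D box snoRNAs are known as the shorter of the main classes, and the letters of the boxes were searched in the genes. Box C was taken as TGATGA in the first 20 bases and box D as CTGA in the last 15, and an H/ACA end as ACA starting in the last 8 bases. With both boxes spelled exactly there were 14 members, of which 6 were called (42.9%, 17.7 to 71.1). The ACA end was found in 91 members, with 17 called (18.7%), and neither in 241, with 35 called (14.5%). Allowing 1 mismatch in box C gave 18 called of 43 (41.9%, 27 to 57.9). Most members hold neither set of letters as spelled here, so these classes are not the annotated families. The first 30 bases of the 3 called C/D members with the highest signal among those shown have box C in capitals.
C51F7.3: gatctaTGATGAgactttcacgacggtctt
W03C9.9: gccgtTGATGAtcaattgagcatatcactg
F30H5.4: gtccgtTGATGAcaacatacatacaccatt
These lie on the plus strand at chrV:12303708-12303737, chrII:11960898-11960927 and chrIII:502804-502833. C51F7.3 had 87.1 as above, W03C9.9 63.9, and F30H5.4 45.7 (26.1 and 16.9 in replicates 1 and 2).

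The A or B letters shown above stood before 30 of the 58 called members (51.7%) and before 18 of the 288 others (6.25%). Before all nuclear genes they were found in 1.7%, and before protein-coding genes in 1.66%. Each pattern occurred at 21 called members (36.2%), and 12 had both. Among the others, 8 had A, 12 had B and 2 had both. The contrast is a description that supports nothing by itself, because the A letters and the upstream stretch were chosen by comparing called with other members. All words of 5, 6 and 7 bases before the 5′ end were compared first, and then 11 spellings were tried, 5 of A and 6 of B, over 100 and 120 bases. The B letters had been named at the outset for the first 100 bases from the 5′ end, on either strand, where they occurred at 3 of 58 called members and 20 of 288 others. On the opposite strand of the upstream stretch, either pattern occurred at 0 of 58 and 4 of 288.

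The stretch searched was part of the choice and bounds the positions of the letters, while the distance between A and B was not used. In called members the A letters began at a median of 58 bases before the 5′ end, in a range of −69 to −50, and the B letters at −14, in a range of −44 to −9. In all 12 called members with both, B began 43 to 45 bases after A, so the patterns share no base. The 2 members with both that were not called, H04D03.5 and Y59E1B.14, had a distance of 44. H04D03.5 had a pooled signal of 10.7, and Y59E1B.14, on the X chromosome, had no summit in any list. Inside the 612 nuclear tRNA genes, A occurred in 264 (43.1%) and B in 587 (95.9%). Both occurred in 245 tRNA genes, and in 202 of these the distance was also 43 to 45, with a median of 44 and a range of 17 to 94. The letters and the summits can be seen side by side in the plot of positions. A match of letters is not a binding site, and which polymerase transcribes these genes was not measured.

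**Figure D4:**
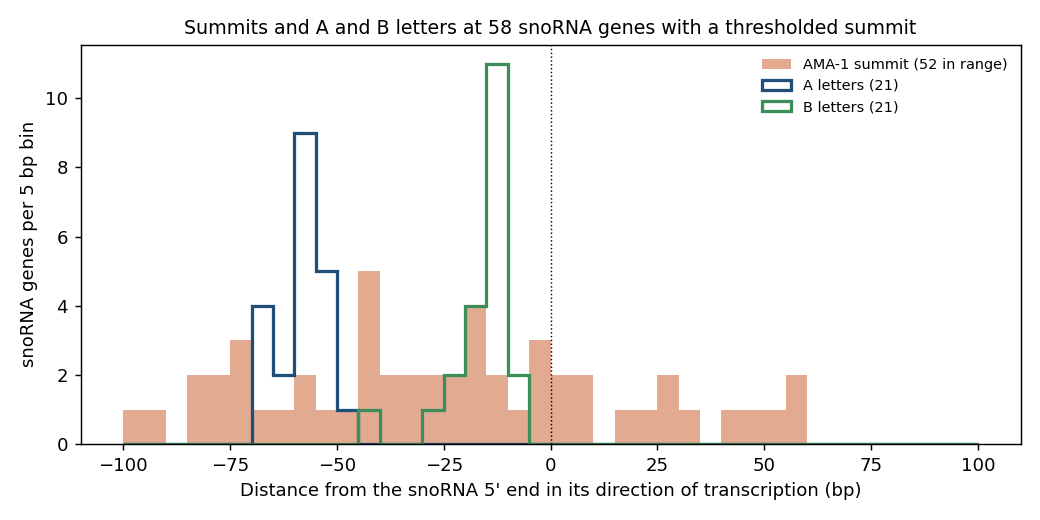
Number of the 58 called snoRNA genes per 5 bp bin with an AMA-1 summit (filled), the start of the A letters (blue outline, 21 genes) or the start of the B letters (green outline, 21 genes), by distance from the 5′ end (bp). The A letters lie from −69 to −50 and the B letters from −44 to −9, and the summits spread across both and into the gene, with 52 of the 58 in the range drawn.

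Signals were higher where the letters were present, but the A letters and the upstream stretch were chosen by comparing called with other members of this set. The shares, intervals and medians here are therefore a description and support nothing by themselves. The groups and lengths below are parts of the same set and do not repeat the result independently. Of the 48 members with either pattern, 30 were called (62.5%, 47.4 to 76), with a median pooled signal of 44.7 over the 38 with a summit. Of the 298 with neither, 28 were called (9.4%, 6.33 to 13.3), with a median of 12.1 over 139. The 14 members with both had 12 called and a median of 57.4 over 13. The difference appeared in each group, with 12 of 21 against 16 of 162 called on the same strand, 4 of 8 against 3 of 25 on the opposite strand and 11 of 15 against 9 of 109 among intergenic members. It also appeared within length, where 18 of 30 called members of 80 bp or less had either pattern, against 2 of 26 others of that length. Above 80 bp this was 12 of 28 against 16 of 262.

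Nested members on the host's strand had the letters too. Besides Y43F8C.22, both patterns stood before T24H7.6 in T24H7.2, with 41.3 (24.9 and 18.7), before M106.6 in mix-1, a condensin subunit gene, with 40.2 (33.3 and 12.1), and before ZK546.18 in mdt-4, a Mediator subunit gene, with 37.1 (28.1 and 8.51). Others had no match. ZK994.7, B0334.12 and D1046.6, in the cleavage factor gene cfim-2, had pooled signals of 107.6, 71.7 and 53.6 without either pattern upstream. Of the 28 called members with no letters upstream, 7 had one of the patterns on either strand within 250 bp (25%), against 54 of 270 of the others (20%).

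A run of at least 4 T began within 20 bases past the 3′ end in 45 of 58 called members (77.6%) and in 100 of 288 others (34.7%). Over all nuclear genes the share was 35.7%, and over tRNA genes 98.4%. It was 21 of 28 on the same strand, 5 of 7 on the opposite strand and 16 of 20 among intergenic called members. At 80 bp or less the run followed 27 of 30 called and 13 of 26 other members, and above 80 bp 18 of 28 and 87 of 262. Of the 40 members with a T run and either upstream pattern, 28 were called (70%, 53.5 to 83.4), and of the 193 with none of these letters, 11 were called (5.7%, 2.88 to 9.97). The upstream search was chosen by comparing called with other members, so this last contrast is a description and supports nothing by itself.

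By chromosome, called members numbered 10 of 74 on I, 16 of 71 on II, 6 of 54 on III, 10 of 59 on IV, 16 of 55 on V and 0 of 33 on X. The exact interval for X reaches 10.6%. Over all nuclear genes, 162 of 6022 on X were called by the same window (2.69%), and on the autosomes the share ran from 0.376% on IV to 1.5% on III. A pooled summit of any signal lay at 3 of the 33 X members, K09E9.5 with 18 and W01H2.11 and T21F2.3 with 10.7 and 10.6. In the single replicates 1 X member stood in the top lists, C53B7.8 (chrX:6867938-6868008, plus strand). This intergenic gene of 71 bp has the B letters at −12. Its signal was 31.1 in replicate 1 (rank 215) and 14.7 in replicate 2 (rank 393), yet the pooled list has no summit within 250 bp. Of 285 peaks in the top list of replicate 1 with a top-list summit of replicate 2 within 250 bp, 5 lacked a pooled summit there, and 4 of these were on X. The share of the 285 that lies on X is not given here, so the 4 cannot be read as an excess on X. The missing pooled summits were noticed after values had been seen, and their cause was not tested.

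Each replicate had members in its top list, 52 in replicate 1 (15%, against 0.774% of all nuclear genes) and 57 in replicate 2 (16.5%, against 1.01%). In both at once were 37 (10.7%, against 0.439%). Of the 58 called members, 46 stood there in replicate 1, 47 in replicate 2 and 36 in both. One called member stood there in neither, C24A1.8 in elf-1, with a pooled signal of 33.6, 10.6 in replicate 1 and no summit in replicate 2. Over the 119 members with a summit in both replicates, Spearman's rho was 0.68, and Pearson's r of the log2 signals was 0.68. These are across genes, some of which share hosts or peaks, and no p is given. Over the 57 called ones rho was 0.34, within a set selected on the pooled signal.

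**Figure D5:**
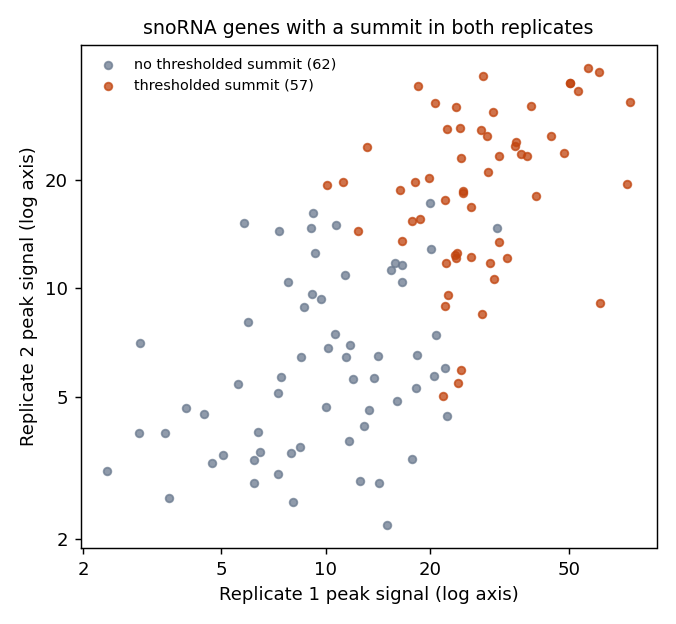
Peak signal in replicate 1 (horizontal) against replicate 2 (vertical), both on log axes, for the 119 snoRNA genes with a summit in both replicates. The 57 called genes (orange) fill the upper right, F25H2.14 lies low in replicate 2 at 9.10 against 61.6 in replicate 1, and the 62 others (grey) lie mostly below.

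The window of 250 bp cut few members closely. The 5 called members with the farthest summits were F19H8.6 (131 bp), C10C6.8 (144), T04A8.17 (152), ZK20.9 (228) and C24A1.8 (240), with pooled signals of 32.4, 54.2, 56.7, 30.7 and 33.6. The 5 nearest beyond it were Y43B11AR.7 in rps-4 (269 bp), F25H2.15 (273), K07C5.10 in nol-56 (335), C27H5.10 in pdl-1 (374) and F17C11.14 in eef-1G (376). The end of the ribosomal protein gene rps-4 is 205 bp from Y43B11AR.7 and carries a pooled signal of 64.0.

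By the same window, 168 of 612 tRNA genes were called (27.5%, 23.9 to 31.2) and 12 of 129 snRNA genes (9.3%, 4.9 to 15.7). The interval of the snRNA genes overlaps that of the snoRNA genes (13 to 21.1), and the interval of the tRNA genes lies above it. In the top list of replicate 1 the shares were 18.8% of tRNA genes and 15% of snoRNA genes, and in that of replicate 2 they were 28.6% and 16.5%. In the top lists of both replicates stood 11.4% of tRNA genes and 10.7% of snoRNA genes. The tRNA share was the higher in each list, the size of the difference depends on the list, and it was not tested. Among miRNA genes 3 of 261 were called (1.15%), and among piRNA genes 13 of 15363 (0.0846%). Of the 346 members, 8 lie within 500 bp of a tRNA, rRNA, snRNA, SL RNA or miRNA gene, and 1 of these was called.

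Genes for the proteins of snoRNA particles and for small RNA transcription were read from a list of 43 names, 37 of which were found in the annotation. Of these, 8 had a thresholded summit within 500 bp of the start or end (21.6%), against 4.0% of protein-coding genes. The C/D core genes had 4 of 4, of which fib-1, nol-58 and snu-13 had the summit within 250 bp of the gene end. The end of fib-1, fibrillarin, had 49.8 (46.4 in replicate 1 and 14.4 in replicate 2), and that of nol-58 had 37.8 (26.2 and 10.3). The end of snu-13 had 32.5 (17.6 and 10.9). For nol-56 the summit, 31.6 (24.1 and 5.44), is the one at its own member K07C5.18, inside the gene and 484 bp from its end. With replicate 1 alone 3 of these 4 were called, and with replicate 2 alone fib-1 was.

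The H/ACA core genes had 1 of 4, garr-1 (the GAR1 gene) at its end with 32.5 (29.2 and 7.89). The dyskerin gene dkc-1 had 15.4 at its start and 11 at its end. Subunits of SNAPc, the factor that starts snRNA transcription, had 1 of 7, snpc-3.4 at its start with 33.6 (14.7 and 16.5). Integrator, which cuts snRNA 3′ ends, had 1 of 11, ints-11 at its end with 31.9 (16.7 and 12.5). The processing list had 1 of 6, xrn-2, an exoribonuclease gene, at its start with 39.6 (34.8 and 12.9), and the assembly list had 0 of 5.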

How the data were processed

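The authors deposited ce11 peak lists for each replicate and for the pooled reads, which hold peaks and background, and a list thresholded by the irreproducible discovery rate, per the file lists deposited with the samples. Each deposited peak carries the authors' signal, used here to describe and rank peaks within a list, and a −log10 q-value, not used here. The sources used here name no aligner, peak caller or scaling, the files hold no read counts, and depth is therefore unknown. Lists on ce10 were not used.

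Genes came from Ensembl release 115 and sequence from RefSeq, both WBcel235. Nested members lie wholly inside a coding gene, same strand taking precedence. Python 3.11.15, pandas 2.3.3, numpy 2.4.6 and scipy 1.17.1 gave counts, medians and exact (Clopper-Pearson) 95% intervals, and the window search was checked on simulated peaks. Positions are 1-based. Each replicate's top list has as many of its highest peaks as the thresholded list. All thresholded peaks were checked to be the highest of the pooled list.

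The members and lists were chosen with earlier results of these data known. Named members are the 25 of highest pooled signal, the 6 highest of each group, the 5 on each side of the window, and every called gene of the protein list. Members with both letters, the X members, those of nol-56 and those without letters were named after their values were seen. In the protein list, names were matched by RefSeq locus tag after a first run had joined 1 of them to a different gene. Matched by symbol alone, with that gene, 6 of 35 were called, and by locus tag 8 of 37. Alternatives were other windows, stricter lists, each replicate left out, other positions, and other letters. Sequence of chromosome I is not shown, that of 1 further member is not reported here, and the 5′ letters were spelled in 11 ways as given beside the result. One coding gene beside a member is not named here.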

Additional observations from a re-analysis of the deposited data

How the results depend on the processing

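Of the values recomputed under other settings, 94 stayed within 1.5 times the reported count, or within the 95% interval of the reported share or median, and 7 moved. The interval of the median summit position, −38 to −3 bp, is wide: the median of −19 became −6.5 and −4 with windows of 100 and 500 bp and −30 without replicate 1 and without replicate 2. Leaving out members near coding starts or ends left 34 called of 234, and 7 of 78 intergenic ones. This setting removes genes from the count. In other introns of the hosts, summits inside the intron gave 0.0773% and introns of at least 200 bp gave 0%. Box C with 1 mismatch gave 18 called C/D members. Among members that were not called, the either-letter count rose from 18 to 35 with B spelled GTTCNA and to 30 with GNTCNANNC, both with fewer fixed bases. Called members were then 36 and 32. These spellings were added after the data were seen. Over windows of 100 and 500 bp 40 and 71 members were called, a stricter list of the highest thresholded peaks gave 46, and without replicate 1 or replicate 2 the count was 57 or 52. The protein list gave 6 without replicate 1 and 6 without replicate 2. No paired analysis was possible because the 2 replicates form 1 group. Depth is unknown, so a member without a summit may be below detection.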
